A study of Rattus norvegicus with 24 samples.

Results

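Circadian clock genes were described in forebrain RNA of rats given D-serine. The set held 10 genes, namely Clock, Per1, Per2, Per3, Cry1, Cry2, Nr1d1, Nr1d2, Dbp and Tef, and took in every probe set of the array that the platform annotation assigns to 1 of these symbols alone. That gave 20 of the 31099 probe sets on the array, of which 14 were bright enough to be tested, with at least 1 for each of the 10 genes. The set was looked at as a sign of the time of day at which the tissue was taken, an hour that is not given in the sources used here.

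Adult male Fisher 344 rats, 11 to 12 weeks old, received 1 dose of vehicle or of 5, 20, 50, 200 or 500 mg/kg D-serine, which binds the NMDA receptor together with glutamate, and were killed 96 h later. Each of the 6 groups had 4 rats with 1 Affymetrix expression array per rat, 24 arrays in all, hybridised with total RNA from about 30 mg of forebrain. No group carried a mutation or a second treatment, and the label names a separate animal for every array. The animal numbers, 243 to 271, ran in a separate block for each dose, in the order vehicle, 500, 200, 50, 20 and 5 mg/kg. An order of killing or handling that followed these numbers could not be told apart from dose.

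The mammalian clock is a loop of transcription and repression that takes about a day. CLOCK, or its relative NPAS2, pairs with BMAL1 and switches on genes that carry an E-box, among them the Per, Cry and Nr1d genes, Dbp and Tef. PER and CRY proteins then bind and block the activator, while the NR1D (REV-ERB) receptors repress Bmal1 through ROR elements and DBP and TEF act through D-boxes. Dbp, Nr1d1 and the Per genes are known as strongly rhythmic transcripts in most tissues, the forebrain included, whereas Clock changes little over the day, and it is the former that are commonly read as a sign of the hour.

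Promoter sequence was read from RefSeq gene starts on the rat build GRCr8, which holds a window for 9 of the 10 genes and none for Cry1. Windows of 300 bases, 250 before and 50 after the start, were searched on both strands for the E-box CACGTG, the D-box TTATGTAA or TTACGTAA, the ROR element and the cyclic AMP response element TGACGTCA. An E-box was found for Nr1d1, in 1 of its 2 windows, and for Tef, a D-box for Per2 and a ROR element for Bmal1, and none of the 9 genes had a cyclic AMP response element in this window. Among all 33469 windows of the same length, 6.42% held the E-box, 1.01% the D-box, 0.48% the ROR element and 1.83% the cyclic AMP response element. The 250 bases before the start of these 4 genes are shown because each holds the letters through which 1 arm of the loop is known to act, with the motif in capitals, 5′ to 3′ on the strand of the gene. They lie at chr10:84229455-84229704 on the minus strand for Nr1d1, chr7:115206577-115206826 on the plus strand for Tef, chr9:99496994-99497243 on the minus strand for Per2 and chr1:176766078-176766327 on the plus strand for Bmal1. A match is only a run of letters, and occupancy was not measured.
Nr1d1, E-box: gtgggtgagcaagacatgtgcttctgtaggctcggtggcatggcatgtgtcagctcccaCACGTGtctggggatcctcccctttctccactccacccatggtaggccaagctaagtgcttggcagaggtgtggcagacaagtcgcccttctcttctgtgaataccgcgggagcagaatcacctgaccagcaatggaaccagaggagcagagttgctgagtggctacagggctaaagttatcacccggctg
Tef, E-box: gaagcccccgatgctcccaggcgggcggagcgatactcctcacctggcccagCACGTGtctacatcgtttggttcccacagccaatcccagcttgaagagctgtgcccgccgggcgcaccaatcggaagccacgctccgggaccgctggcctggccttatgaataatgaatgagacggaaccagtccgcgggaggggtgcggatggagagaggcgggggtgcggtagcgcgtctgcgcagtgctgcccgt
Per2, D-box: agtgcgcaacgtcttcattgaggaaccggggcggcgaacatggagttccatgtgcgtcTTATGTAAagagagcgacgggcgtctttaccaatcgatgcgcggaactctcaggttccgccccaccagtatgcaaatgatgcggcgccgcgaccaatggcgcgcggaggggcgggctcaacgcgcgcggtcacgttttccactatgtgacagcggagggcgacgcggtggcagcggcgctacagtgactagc
Bmal1, ROR element: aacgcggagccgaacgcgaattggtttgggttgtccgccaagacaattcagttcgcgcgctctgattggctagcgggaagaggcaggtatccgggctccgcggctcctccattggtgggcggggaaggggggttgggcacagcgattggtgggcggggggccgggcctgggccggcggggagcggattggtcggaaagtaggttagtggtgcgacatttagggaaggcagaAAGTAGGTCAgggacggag

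Array medians ran from 55.8 to 103.65 intensity units before normalization, and values below are log2(intensity + 16) after quantile normalization, so that 1 unit is a 2-fold difference in bright probe sets and more than that in dim ones. The array of 500 mg/kg replicate 4 stood apart: its correlations with the other 23 had a median of 0.855. Its mean over 5 cerebellar markers was 10.9 against 6.56 to 7.49 on the other 23, and that over 5 forebrain excitatory neuron markers 7.41 against 9.26 to 10.1, so its tissue went against the label, and results that rest on it are given with and without it. Tissue content differed among the other arrays too. The mean of 2 choroid plexus markers was 9.58 to 10.4 on 5 arrays (vehicle replicate 2, 50 mg/kg replicate 3, 200 mg/kg replicates 1 and 4 and 500 mg/kg replicate 4) and 6.07 to 7.18 on the other 19. The mean of 5 thalamic markers was 9.61 in vehicle replicate 2, 9.03 in 50 mg/kg replicate 3 and 8.66 in 500 mg/kg replicate 4, against 6.97 to 7.69 on the other 21. That of 5 striatal markers ran from 6.54 to 9.35 over the 24 arrays. The arrays also differed in the Gapdh ratio, the log2 of the control probe set near the 3' end over that near the 5' end, which depends on how intact the RNA was. It was 0.76 to 0.89 in vehicle, 0.098 to 0.26 at 5 mg/kg, 0.15 to 0.23 at 20 mg/kg, 0.18 to 0.57 at 50 mg/kg, 0.41 to 0.80 at 200 mg/kg and 0.65 to 0.97 at 500 mg/kg. At 5, 20 and 50 mg/kg the ratio did not overlap vehicle. Between groups that do not overlap in it, a fit with the ratio as a covariate can hardly tell dose from ratio. A call lost in such a fit therefore says little about either. The same ratio for beta-actin was 2.33 to 2.76 in vehicle, 2.29 to 2.65 at 200 mg/kg and 2.27 to 2.71 at 500 mg/kg. It was lower, without overlap, at 5 mg/kg (1.58 to 1.79), 20 mg/kg (1.46 to 1.86) and 50 mg/kg (1.77 to 1.95).

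At their brightest probe sets, none of the 10 clock genes passed the test against vehicle at any dose. Each gene was taken at its brightest probe set and tested with limma, with Benjamini-Hochberg adjustment over all 18625 probe sets that were bright enough and an adjusted p under 0.05 as the threshold. At 5 mg/kg 0 of 10 passed, where 5.52% of all probe sets did, and at 20 mg/kg 0 of 10, where 8.48% did. At 50, 200 and 500 mg/kg 0 of 10 passed, beside 0.864%, 0% and 0.00537% of all probe sets. By the F test over the 6 groups 0 of 10 passed, beside 5.93% of all probe sets, and by the slope over dose rank 0 of 10, beside 0%. At such shares a set of 10 genes would hold few calls, so these counts do not set the clock genes apart. A dimmer probe set of Tef, 1369919_at, did pass at 20 mg/kg (limma adjusted p = 0.0491), as described below. Of the 50 comparisons with vehicle, 2 had an unadjusted p under 0.05 in limma, those of Tef at 20 mg/kg and of Cry1 at 500 mg/kg, and by the F test 1 gene did, Cry1.

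The differences were small as well as uncertain. The 50 log2 differences from vehicle ran from -0.40 to 0.31, and all 50 of their 95% intervals lay within 1 log2 unit, or 2-fold, of no change. At the brightest probe sets the interval end farthest from no change was 1.23-fold for Tef, 1.26-fold for Cry2, 1.28-fold for Clock, 1.37-fold for Nr1d1, 1.42-fold for Nr1d2, 1.48-fold for both Cry1 and Dbp, 1.51-fold for Per2, 1.73-fold for Per1 and 1.75-fold for Per3. Other tested probe sets reached farther at 20 mg/kg. In log2 units, the interval of Tef 1369919_at was 0.18 to 0.87 and that of Nr1d2 1370541_at -0.12 to 0.63. The median difference over the 10 genes was 0.058, 0.060, -0.033, 0.067 and 0.077 at 5, 20, 50, 200 and 500 mg/kg, with 8, 5, 5, 9 and 8 of the 10 above vehicle. Over all probe sets these medians lay between -0.0044 and 0.0064. The median and count at 500 mg/kg include replicate 4, the array that stood apart, and were not taken without it. Without that array Per3 and Nr1d2 no longer lay above vehicle, as given below. All these comparisons share the same vehicle arrays. With 4 arrays a group, the width of these intervals and not the absence of a call sets how large a change could have gone undetected.

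**Figure D1:**
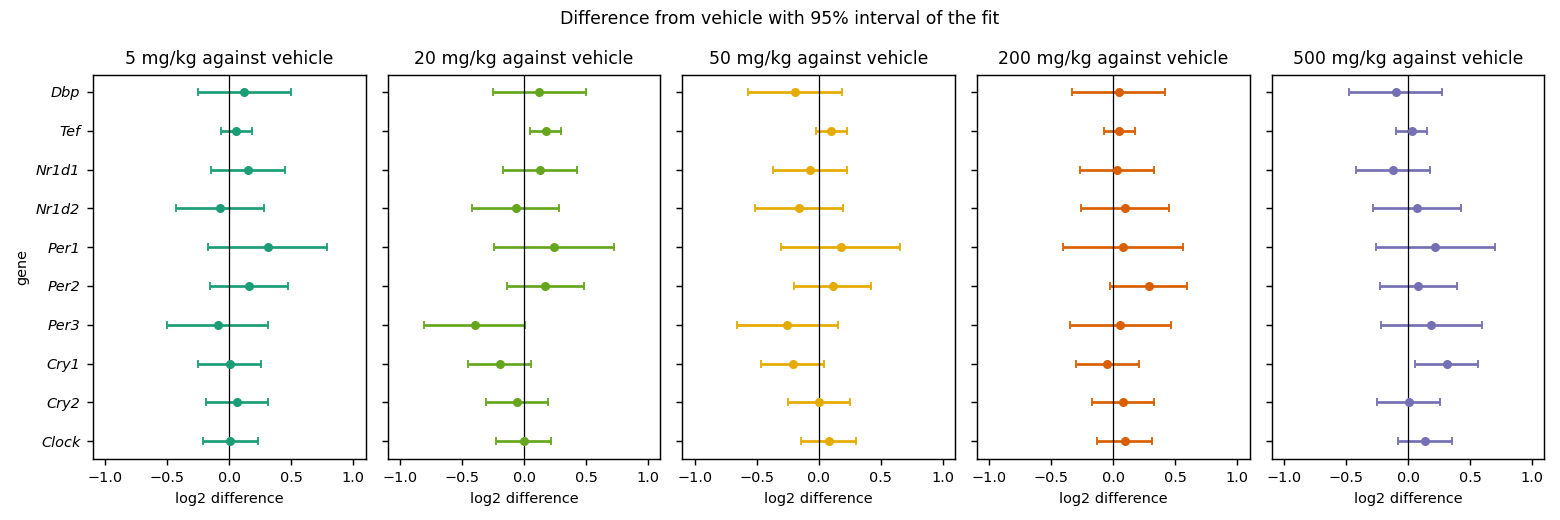
Log2 difference from vehicle (x axis, log2 units) of the 10 clock genes at their brightest probe sets (y axis) at each dose, 1 panel per dose, with points for the fitted difference and bars for its 95% interval. All bars stay inside 1 log2 unit, and only those of Tef at 20 mg/kg and Cry1 at 500 mg/kg leave out 0.

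Among the output genes of the loop, Dbp, a transcription factor of the PAR bZIP family, read 8.29, 7.87, 7.46 and 8.27 on the 4 vehicle arrays. The rats at 5 mg/kg read 7.93, 8.12, 8.17 and 8.15, those at 20 mg/kg 7.83, 8.03, 8.09 and 8.43, and those at 50 mg/kg 7.79, 7.82, 7.96 and 7.55. At 200 mg/kg the values were 8.38, 8.06, 7.82 and 7.79, and at 500 mg/kg 7.82, 8.27, 7.95 and 7.46. The vehicle rats alone spanned most of the range of all 24 arrays, 7.46 to 8.43, and every dose group overlapped them. The largest difference was that at 50 mg/kg, -0.19 ± 0.18 (SE, n = 4 rats a group, adjusted p = 0.74 in limma). At 500 mg/kg it was -0.10 ± 0.18 with the array that stood apart, whose Dbp value was the lowest of all 24, and 0.04 ± 0.18 without it.

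Tef, a PAR bZIP factor related to Dbp, was the steadiest of the 10 genes at its brightest probe set, with a pooled SD within groups of 0.059. It read 8.86, 8.98, 8.97 and 9.04 in vehicle and 9.18, 9.17, 9.15 and 9.05 at 20 mg/kg. All 4 rats at 20 mg/kg lay above all 4 vehicle rats, by a narrow margin, and the difference of 0.17 ± 0.06 (SE, n = 4) did not pass (limma adjusted p = 0.082). Groups that do not overlap with vehicle were found for 15.9% of all probe sets at 20 mg/kg. The other doses differed from vehicle by 0.03 to 0.10. The further Tef probe sets were dimmer. Probe set 1369919_at differed from vehicle in the same direction as the brightest at every dose, by more at 5, 20 and 50 mg/kg. Within groups it did not follow the brightest from rat to rat (r = -0.08, permutation p = 0.744). Probe set 1385374_at went the other way at 5 and 20 mg/kg. Probe set 1369919_at read 6.17, 5.94, 5.56 and 6.04 in vehicle and 6.39, 6.46, 6.32 and 6.65 at 20 mg/kg, and rose by 0.53 ± 0.16 (SE, n = 4, limma adjusted p = 0.0491), while 1385374_at read -0.17 ± 0.16 (adjusted p = 0.61). The differences of 1369919_at at 5 mg/kg, 0.43, and at 50 mg/kg, 0.44, did not pass, and it read 0.02 at 200 mg/kg. Its call at 20 mg/kg was lost in 16 of the 24 fits that left out 1 array, over which the difference ran from 0.40 to 0.61 with a largest adjusted p of 0.158 (without vehicle replicate 3). With the Gapdh ratio as a covariate it read 0.47 (adjusted p = 0.79), and 0.32 when 500 mg/kg replicate 4 was also left out (adjusted p = 0.984).

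The Nr1d genes encode the REV-ERB repressors. Nr1d1 read 7.14, 6.99, 6.38 and 7.09 in vehicle. The rats at 5 mg/kg read 7.06, 7.30, 6.95 and 6.90, and those at 500 mg/kg 6.96, 6.67, 6.70 and 6.78. Vehicle replicate 3 held the lowest value of the 24 arrays and the groups overlapped throughout, with differences from -0.12 to 0.15 (smallest limma adjusted p = 0.644 at 5 mg/kg). Nr1d2 read 9.37, 9.11, 8.85 and 9.18 in vehicle and 9.11, 8.91, 8.87 and 9.88 at 500 mg/kg, the last of these being the highest of the 24 arrays and the one that stood apart. Its difference at 500 mg/kg was 0.07 ± 0.17 (SE, n = 4, limma adjusted p = 0.942), and -0.16 ± 0.13 (adjusted p = 0.909) without that array. The second probe set of Nr1d2, 1370541_at, moved with the first from rat to rat (Pearson r = 0.83, Spearman rho = 0.85 over 24 arrays with group means removed, permutation p = 4e-05, adjusted p = 0.0002 over 5 pairs of probe sets, and r = 0.66 without 500 mg/kg replicate 4). Its group differences from vehicle were 0.25, 0.26 and 0.06 at 5, 20 and 50 mg/kg, each ± 0.18 (SE, limma adjusted p = 0.516, 0.452 and 0.942). The first read -0.08, -0.07 and -0.16 there, the other direction. At 200 and 500 mg/kg both lay above vehicle.

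Of the Per repressors, Per1, which also responds quickly to neuronal activity and to glucocorticoids, varied most. It read 7.64, 7.38, 7.52 and 6.98 in vehicle, while the rats at 5 mg/kg read 7.48, 8.14, 7.49 and 7.64 and those at 20 mg/kg 7.69, 7.67, 7.56 and 7.57. The 50 mg/kg rats read 7.08, 7.55, 7.84 and 7.75, at 200 mg/kg 7.43, 7.65, 8.13 and 6.62, and at 500 mg/kg 7.57, 7.28, 7.87 and 7.67. All 5 dosed means lay above the vehicle mean, by 0.08 to 0.31, but the 4 rats at 200 mg/kg alone covered nearly the whole range, and the largest difference, at 5 mg/kg, was 0.31 ± 0.23 (SE, n = 4, limma adjusted p = 0.525). Per2 read 8.22, 8.05, 8.32 and 7.64 in vehicle and 8.32, 8.42, 8.57 and 8.07 at 200 mg/kg, its largest difference, 0.29 ± 0.15 (limma adjusted p = 0.961). Its 5 dosed means were above vehicle as well, by 0.08 to 0.29, and each dose group overlapped vehicle. The comparisons share the 4 vehicle arrays, of which replicate 4 had the lowest Per2 value of all 24.

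Per3, the third Per gene, was dimmer and had the lowest group mean at 20 mg/kg. It read 6.87, 6.34, 6.82 and 6.86 in vehicle. The rats at 20 mg/kg read 6.20, 6.45, 6.06 and 6.59, and those at 50 mg/kg 6.81, 6.38, 6.37 and 6.32. The 200 mg/kg rats read 7.02, 7.06, 6.42 and 6.61, and those at 500 mg/kg 6.58, 6.70, 6.86 and 7.49. Vehicle replicate 2 reached into the 20 mg/kg group, and the difference there, -0.40 ± 0.20 (SE, n = 4), was the largest of the 50 and did not pass (limma adjusted p = 0.246). At 500 mg/kg the difference was 0.19 ± 0.20 with the array that stood apart, which was the highest of all 24, and -0.0067 ± 0.18 without it.

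Cry1 and Cry2 encode the cryptochrome repressors. Cry1 read 7.32, 7.52, 7.53 and 7.62 in vehicle. The rats at 20 mg/kg read 7.18, 7.32, 7.39 and 7.32, those at 50 mg/kg 7.55, 7.38, 7.29 and 6.94, and those at 500 mg/kg 7.66, 7.76, 7.66 and 8.16. All 4 rats at 500 mg/kg lay above all 4 vehicle rats, a separation found for 2.73% of all probe sets at this dose. The difference of 0.31 ± 0.12 (SE, n = 4) did not pass (limma adjusted p = 0.712) and was 0.20 ± 0.12 without 500 mg/kg replicate 4 (adjusted p = 0.863). Cry2 read 8.53, 8.33, 8.56 and 8.55 in vehicle and differed from it by -0.05 to 0.08 over the doses. Clock, the activator subunit, averaged 8.15 ± 0.14 in vehicle (SD, n = 4) and differed by -0.0028 to 0.14, and its second probe set, 1390199_at, by 0.06 to 0.17.

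**Figure D2:**
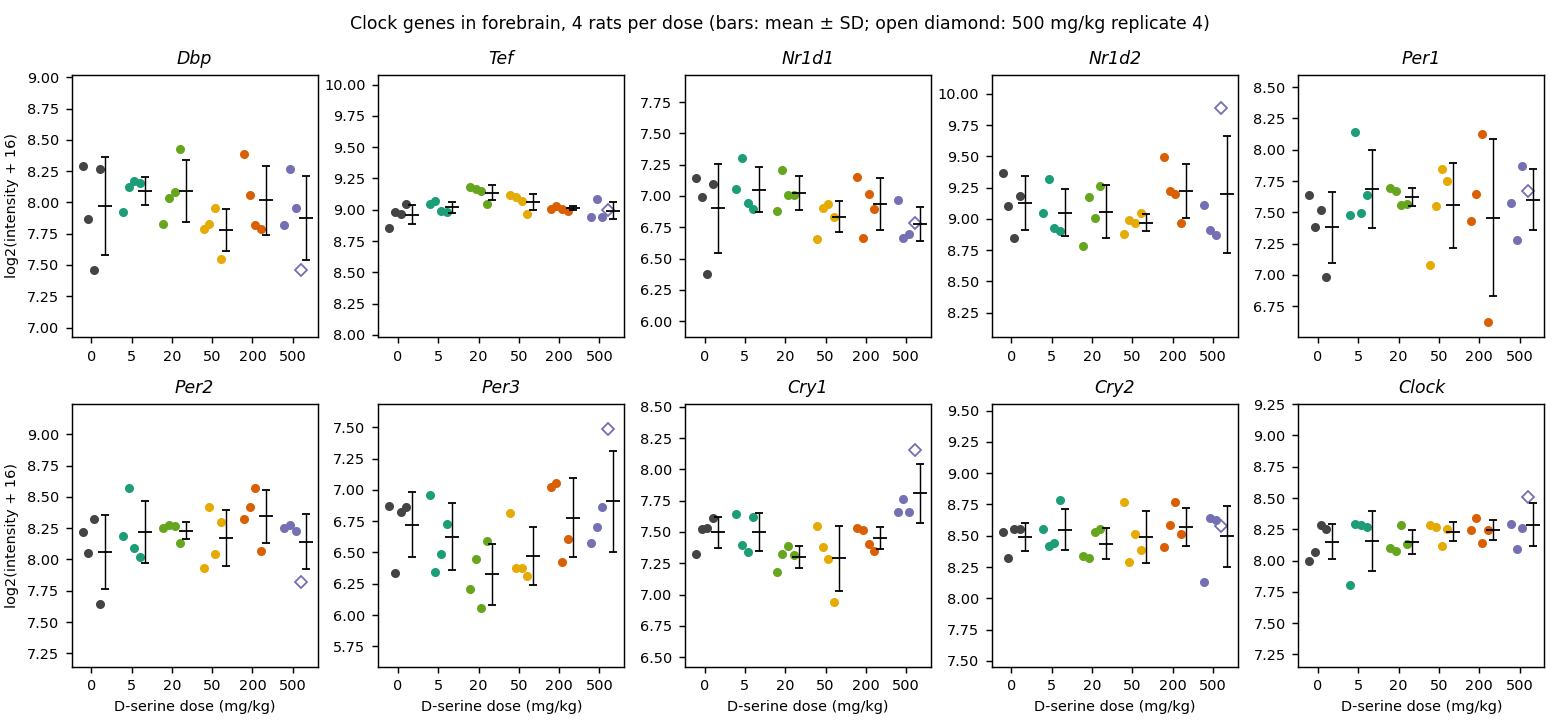
Level of each clock gene at its brightest probe set (y axis, log2(intensity + 16)) in every rat by D-serine dose (x axis, mg/kg; 0 is vehicle), 4 rats per dose, with bars for the group mean ± SD and an open diamond for 500 mg/kg replicate 4. The groups overlap vehicle in every panel except Tef at 20 mg/kg and Cry1 at 500 mg/kg, and the diamond is the highest point for Per3, Cry1, Nr1d2 and Clock.

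The 6 probe sets too dim to be tested belonged to Per2 (mean over 24 arrays 4.72), Per3 (4.77), Nr1d2 (5.94), Cry2 (5.89) and Clock (5.33 and 5.12), under the limit of 5.985. Each of these genes had a brighter probe set that was tested. In a pair of them a dose group lay above vehicle without overlap, as seen after the values were known: Cry2 1369446_at read 6.19 to 6.29 at 5 mg/kg against 5.08 to 6.04 in vehicle, and Nr1d2 1370540_at 6.04 to 6.14 at 20 mg/kg against 5.40 to 5.92. The brighter probe sets of these genes read 0.06 ± 0.12 and -0.07 ± 0.17 in the same comparisons (SE). Groups without overlap with vehicle were common at these doses, for 13.6% of the tested probe sets at 5 mg/kg and 15.9% at 20 mg/kg.

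Comparisons between dose groups gave a single call. Over all 15 pairs of groups and 10 genes, 150 tests, the one that passed was Cry1 at 500 against 20 mg/kg, higher by 0.51 ± 0.12 (SE, n = 4 rats a group, adjusted p = 0.0149 in limma), or 1.42-fold, a comparison in which 7.19% of all probe sets passed. Without 500 mg/kg replicate 4 the difference was 0.39 ± 0.12 (adjusted p = 0.0639) and 3.53% of all probe sets passed, and this was the only one of the 24 fits without 1 array in which the call was lost. Cry1 read 0.52 ± 0.12 at 500 against 50 mg/kg, which did not pass (adjusted p = 0.064). The groups at 20 and 500 mg/kg also differed in Gapdh ratio without overlap. With that ratio as a covariate Cry1 at 500 against 20 mg/kg read -0.034 (limma adjusted p = 1), and 0.0003 when the array that stood apart was also left out (adjusted p = 1). With the intensities as deposited it read 0.05 (adjusted p = 0.799).

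The spread between rats of the same dose differed widely among the clock genes. The pooled SD within groups was 0.35 for Per1, 0.29 for Per3, 0.27 for Dbp, 0.26 for Nr1d2, 0.22 for Per2 and 0.21 for Nr1d1, against 0.19 for the median gene, so 6 of 10 were above a value that splits all genes evenly. It was 0.17 for Cry1 and Cry2, 0.15 for Clock and 0.059 for Tef. Per1 was above 89.9% of all genes, Nr1d1 above 59.3% and Tef above 0.274%. Of the 24 arrays, 500 mg/kg replicate 4 had the highest value for 4 of the 10 genes and the lowest for 1, Dbp, and 5 mg/kg replicate 2 the highest for 3, Per1, Per2 and Nr1d1. The pooled SDs include 500 mg/kg replicate 4 and were not taken without it, so the count of 6 may rest on it. For Nr1d2 the SD was 0.47 at 500 mg/kg and 0.07 to 0.22 in the other groups.

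Whether the genes varied together from rat to rat was measured with group means removed, which takes out differences between doses but not those in tissue content between rats of 1 dose. Dbp was set against the other 9 genes and Bmal1, and 0 of these 10 relations passed after Benjamini-Hochberg adjustment (permutation within groups, 100000 resamples, two-sided; 0 had an unadjusted p under 0.05). The highest was that of Dbp with Nr1d1, Pearson r = 0.42 and Spearman rho = 0.21 over 24 arrays (permutation p = 0.136 and 0.391, adjusted p = 0.993 and 0.827), which was 0.12 without the pair of arrays farthest from the median Dbp value. With Nr1d2, Dbp gave r = 0.07, and r = 0.60 without 500 mg/kg replicate 4 (permutation p = 0.0166, adjusted p = 0.166). Dbp and Bmal1, which peak at different phases of the cycle in most tissues, gave r = 0.32 (permutation p = 0.209).

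Dbp and Per1 varied with the striatal marker level of the array, a family of 10 relations added after the data were seen. Dbp gave r = 0.61 and rho = 0.64 over 24 arrays with group means removed (permutation p = 0.00348 and 0.00298, adjusted p = 0.0202 and 0.0149), r = 0.53 without 500 mg/kg replicate 4 (adjusted p = 0.0336) and r = 0.47 without the pair of arrays farthest from the median striatal level. Per1 went the other way, with r = -0.59 and rho = -0.71 (permutation p = 0.00405 and 0.00076, adjusted p = 0.0202 and 0.0076), and r = -0.62 and -0.57 in those settings (adjusted p = 0.0174 for the former). At 20 mg/kg, for example, striatal levels of 6.75, 7.33, 8.02 and 9.06 stood beside the Dbp values 7.83, 8.03, 8.09 and 8.43 given above. Not every group followed. At 50 mg/kg the striatal level was 9.06 in replicate 1 and 6.58 to 6.66 in the others, but Dbp was highest, at 7.96, in replicate 3. The adjustment covers the 10 relations and not the choice of this marker list among several. Per2 at r = -0.44 and Per3 at 0.25 did not pass (adjusted p = 0.173 and 0.495) but did without 500 mg/kg replicate 4, at -0.72 and 0.61 (adjusted p = 0.0057 and 0.0336). The part of tissue content in the relations between clock genes was not tested.

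All 45 pairs of the 10 genes had a median r of -0.0084, with 20 pairs above 0. Adding Bmal1 and Npas2, a family of 66 pairs chosen after the data were seen, 0 passed by r, and 1 did without 500 mg/kg replicate 4. That pair was Nr1d1 and Nr1d2, with r = 0.53 and rho = 0.67 over 24 arrays (permutation p = 0.00959 and 0.00096, adjusted p = 0.211 and 0.0634) and r = 0.76 without that array (adjusted p = 0.0429). Without the pair of arrays farthest from the median Nr1d1 value r was 0.39. Per1 and Per2 gave r = 0.64 and rho = 0.57 (permutation p = 0.00434 and 0.0162, adjusted p = 0.148 and 0.357), r = 0.72 without 500 mg/kg replicate 4 (adjusted p = 0.0538) and r = 0.47 without the farthest pair of arrays. Per3 and Cry1 gave r = 0.63 and rho = 0.55 (adjusted p = 0.148 and 0.357), and 0.47 without 500 mg/kg replicate 4. The lowest r, that of Nr1d2 with Npas2, was -0.59 and became 0.47 without that array, so its sign rested on it.

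For the promoters printed above, the genes were set against the factors known to act on each motif. Per2, whose window holds the D-box, gave r = -0.09 with Dbp and -0.07 with Tef, the D-box factors (permutation p = 0.756 and 0.779), and -0.30 with Dbp without 500 mg/kg replicate 4. Bmal1, whose window holds the ROR element, gave r = 0.26 with Nr1d1 and 0.04 with Nr1d2 (permutation p = 0.377 and 0.843). Of the genes with an E-box, Nr1d1 gave r = -0.24 with Clock and Tef r = -0.0084 with Clock and -0.25 with Bmal1 (permutation p = 0.34, 0.972 and 0.356).

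**Figure D3:**
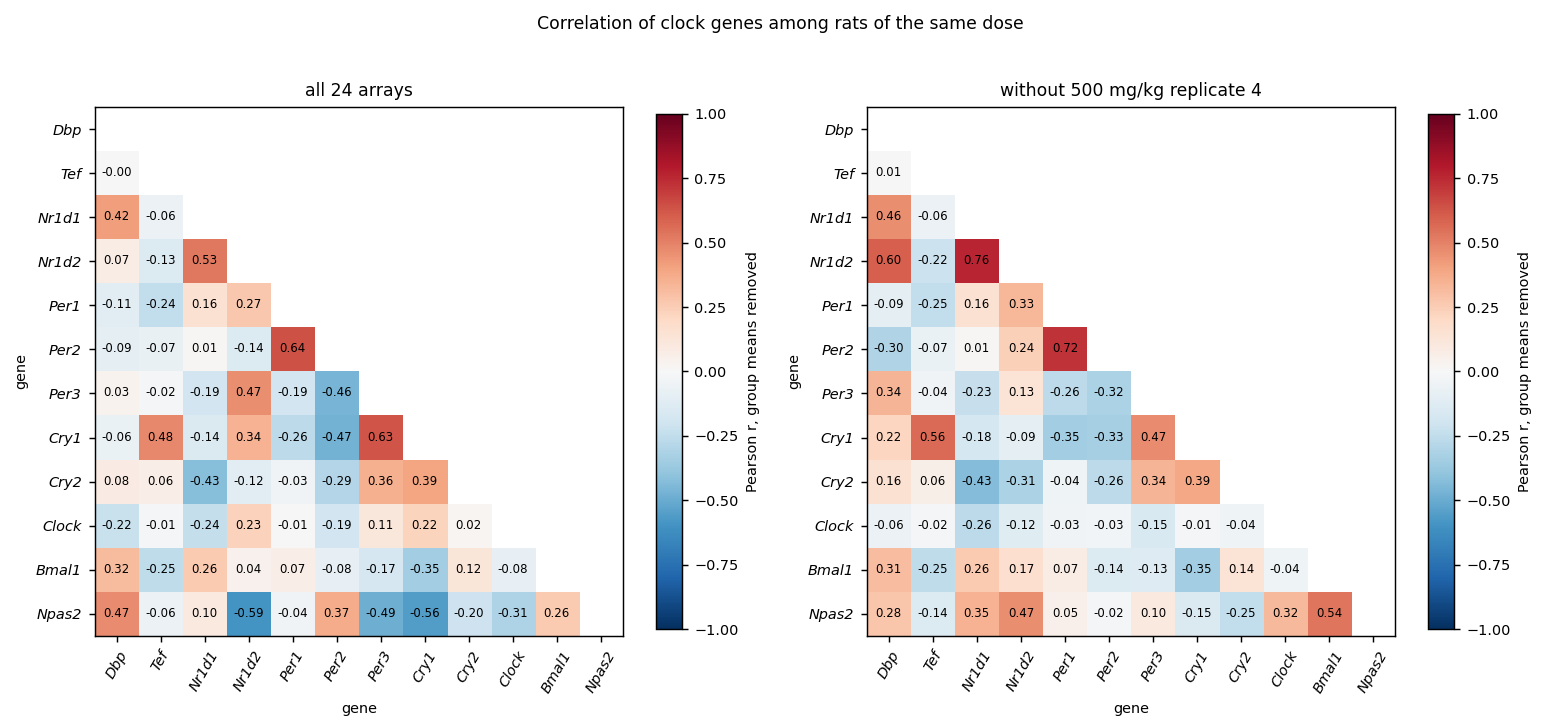
Pearson r between clock genes over arrays with group means removed (colour and printed value, -1 to 1; both axes list the 10 genes with Bmal1 and Npas2), with all 24 arrays on the left and without 500 mg/kg replicate 4 on the right. The pairs Per1 with Per2 and Nr1d1 with Nr1d2 are the highest on the right, at 0.72 and 0.76, and several values of Npas2 change sign between the panels.

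By a search over the other 10204 genes, those whose level went most closely with Dbp within groups were Lima1, an actin-binding protein gene, at r = 0.79, Laptm5, a lysosomal membrane protein gene of immune cells, at 0.78, G0s2, an inhibitor of fat breakdown, at 0.77, Ppp3ca, a calcineurin catalytic subunit gene, and Car11 at 0.73, and Rasd2, a striatal GTPase gene, Eogt and Lzts3 at 0.72. The most opposed were Top3a, a topoisomerase gene, at -0.84, the adhesion gene L1cam at -0.77, Ppm1h at -0.75, and Efr3b and Prpf8, a core splicing factor gene, at -0.73. No clock gene was among them: Npas2 ranked 380 from the top (r = 0.47) and Nr1d1 623. The order rests partly on 500 mg/kg replicate 4. Without it Lima1 ranked 13, Laptm5 4, G0s2 2, Ppp3ca 26, Car11 36, Rasd2 52, Eogt 18 and Lzts3 44, and the highest of the clock genes was Nr1d2 at 108 (r = 0.60), from 4027 with it, while Npas2 ranked 1697 and Nr1d1 472. These r values are the extremes of a search over 24 arrays and are given as a description.

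Per3 and Cry1 varied with the Gapdh ratio. Within groups, Per3 gave r = 0.79 and rho = 0.79 with the ratio (permutation p = 0.00024 and 0.0002, adjusted p = 0.00235 and 0.002 over 10 genes) and Cry1 r = 0.72 and rho = 0.67 (permutation p = 0.00047 and 0.00149, adjusted p = 0.00235 and 0.00745). Without 500 mg/kg replicate 4 r was 0.73 for Per3 (adjusted p = 0.0102) and 0.64 for Cry1 (adjusted p = 0.0361), and without the pair of arrays farthest from the median ratio 0.72 and 0.63. Nr1d2 gave r = 0.53 (adjusted p = 0.0676) and rho = 0.53 (adjusted p = 0.0447), and r = 0.34 without 500 mg/kg replicate 4. The other 7 genes had r between -0.28 and 0.29, among them Dbp at 0.13. Across groups both genes were lowest at 20 and 50 mg/kg, where the mean ratio was 0.184 and 0.340. At 5 mg/kg, with a mean ratio of 0.194, Cry1 averaged 7.50, as in vehicle with a ratio of 0.826, and Per3 6.63 against 6.72. With the ratio as a covariate, Per3 at 20 mg/kg read 0.74 (limma adjusted p = 0.761) in place of -0.40, and Cry1 at 20 mg/kg 0.42 (adjusted p = 0.771) in place of -0.20. Without 500 mg/kg replicate 4 these were 0.59 and 0.31. The part of RNA quality in these levels was not tested.

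**Figure D4:**
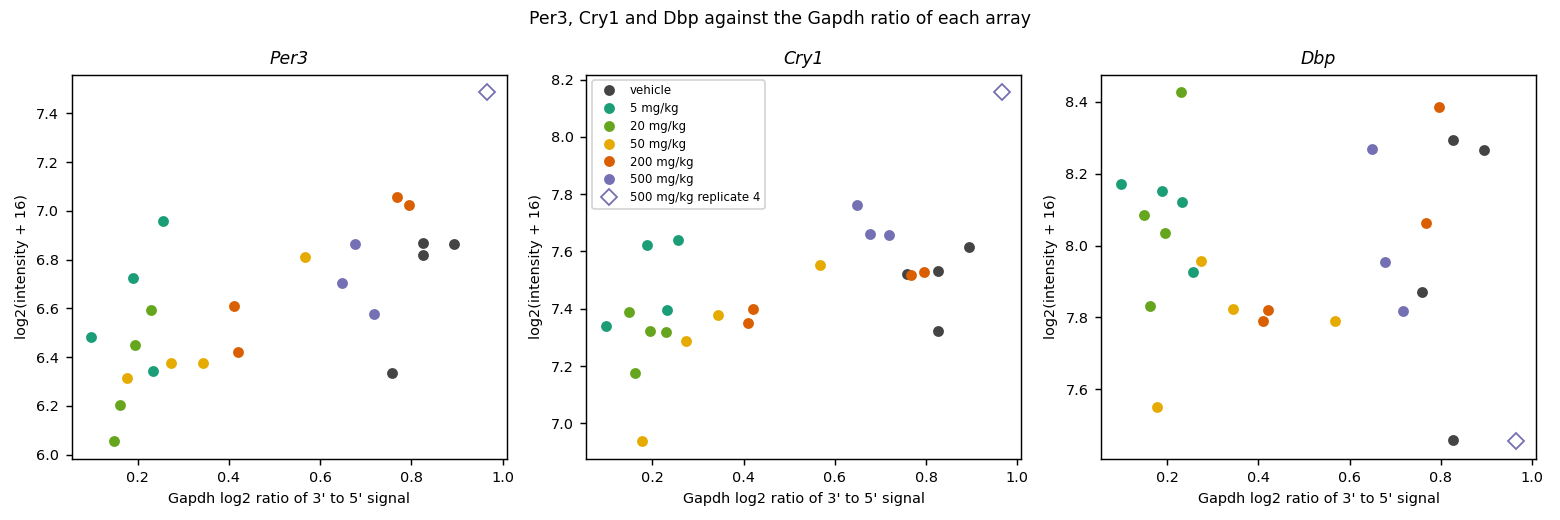
Level of Per3, Cry1 and Dbp (y axes, log2(intensity + 16)) against the Gapdh ratio of the same array (x axes, log2 of 3' over 5'), 1 point per rat coloured by dose, with an open diamond for 500 mg/kg replicate 4. Per3 and Cry1 are higher on arrays with a higher ratio (r = 0.79 and 0.72 within groups), and r is 0.13 for Dbp.

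Other genes of the clock came from a list of 20, of which 16 are on the array and 14 were tested at their brightest probe set. At 5 and 20 mg/kg 2 of 14 passed in limma, the same genes at both doses, beside 5.52% and 8.48% of all probe sets, and at 50, 200 and 500 mg/kg 0 of 14 passed, while 3, 1 and 3 had an unadjusted p under 0.05. Rorb, a ROR receptor gene of neurons, had vehicle arrays from 6.96 to 7.43 and arrays from 6.28 to 6.87 at 5 mg/kg and 6.26 to 6.73 at 20 mg/kg, with no overlap, as for 13.6% and 15.9% of all probe sets. It fell by 0.71 ± 0.20 at 5 mg/kg (SE, n = 4, limma adjusted p = 0.0365) and by 0.73 ± 0.20 at 20 mg/kg (adjusted p = 0.0223), and the other doses read -0.64 to -0.75 without passing. Its other probe set, 1371257_at, was too dim to be tested and had its mean at 5.91 and 5.94 at these doses against 5.67 in vehicle, which is the other direction. Wee1, a cell cycle kinase gene known as a clock output, rose at probe set 1397409_s_at by 0.44 ± 0.12 at 5 mg/kg (adjusted p = 0.0296) and 0.47 ± 0.12 at 20 mg/kg (adjusted p = 0.014) and passed the F test (adjusted p = 0.0416), while 1370663_at read 0.10 and 0.09. The Rorb calls were lost in 6 (5 mg/kg) and 4 (20 mg/kg) of the 24 fits without 1 array and those of Wee1 in 4 and 2. For Rorb these were the fits without vehicle replicates 1, 2 or 4 or 5 mg/kg replicates 2, 3 or 4, and without vehicle replicates 1 or 2 or 20 mg/kg replicates 1 or 3. For Wee1 they were those without vehicle replicates 1 or 3 or 5 mg/kg replicates 2 or 3, and without vehicle replicate 1 or 20 mg/kg replicate 3. With the Gapdh ratio as a covariate the calls of both genes were lost, with Rorb at -0.83 and -0.86 and Wee1 at 0.32 and 0.35 (adjusted p from 0.744 to 0.786). That fit could hardly tell dose from ratio at these doses, where the ratio did not overlap vehicle. Without 500 mg/kg replicate 4 as well, Rorb read -0.38 and -0.39. As deposited, Rorb read -0.55 and -0.39 and lost both calls (adjusted p = 0.107 and 0.116). At 5 mg/kg its call was also lost with no filter (adjusted p = 0.0585) and with 1 probe set per gene (0.0631), and that of Wee1 with 1 probe set per gene (0.0506).

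Bmal1, the partner of CLOCK, read 0.22 ± 0.11, 0.17 ± 0.11, 0.18 ± 0.11, 0.07 ± 0.11 and 0.19 ± 0.11 from vehicle over the 5 doses (SE, n = 4, smallest limma adjusted p = 0.292). Npas2, the forebrain relative of Clock, read 0.17, 0.10, -0.01, 0.22 and -0.42, each ± 0.35 (smallest adjusted p = 0.801). The last of these was 0.21 ± 0.12 without 500 mg/kg replicate 4 (adjusted p = 0.856), so its sign rested on that array. The median over the 14 genes was 0.060, 0.021, 0.024, 0.060 and -0.0080 from 5 to 500 mg/kg.

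Csnk1d, the casein kinase that phosphorylates PER proteins, gave different readings from its 5 probe sets. The brightest, 1373332_at, read -0.03 ± 0.08 at 5 mg/kg and -0.09 ± 0.08 at 20 mg/kg (SE, n = 4, limma adjusted p = 0.887 and 0.611), and 1370528_at 0.05 and 0.09. The other 3 rose at both doses, 1370527_a_at by 0.67 ± 0.12 and 0.80 ± 0.12 (adjusted p = 0.00169 and 0.000237), 1370819_at by 0.69 ± 0.13 at both (adjusted p = 0.00295 and 0.00195) and 1395914_at by 0.61 ± 0.11 and 0.62 ± 0.11 (adjusted p = 0.00173 and 0.000949). For 1370527_a_at the vehicle arrays lay at 7.24 to 7.53, those at 5 mg/kg at 7.96 to 8.17, those at 20 mg/kg at 8.11 to 8.24 and those at 500 mg/kg at 6.98 to 7.38. At 5 and 20 mg/kg this probe set thus lay above vehicle and 500 mg/kg without overlap. It also rose at 50 mg/kg, by 0.60 ± 0.12 (adjusted p = 0.0157), a call lost without vehicle replicate 1 or 50 mg/kg replicate 4. The calls at 5 and 20 mg/kg held in all 24 fits without 1 array and were lost with the Gapdh ratio as a covariate, where 1370527_a_at read 0.28 and 0.41 (adjusted p = 0.785 and 0.777), 1370819_at 0.15 and 0.13, and 1395914_at 0.21 at both. As the ratio at these doses did not overlap vehicle, the fit with it could hardly tell dose from ratio. Csnk1e, the related kinase gene, rose at 1 of its probe sets, 1369804_a_at, by 0.57 ± 0.17 at 5 mg/kg (adjusted p = 0.0476), a call lost in 17 of 24 fits without 1 array, while its brightest read -0.10. Btrc, part of the ligase that marks PER proteins for breakdown, passed the F test at 1 probe set, 1374654_at (limma adjusted p = 0.0488, and 0.0853 without 500 mg/kg replicate 4).

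**Figure D5:**
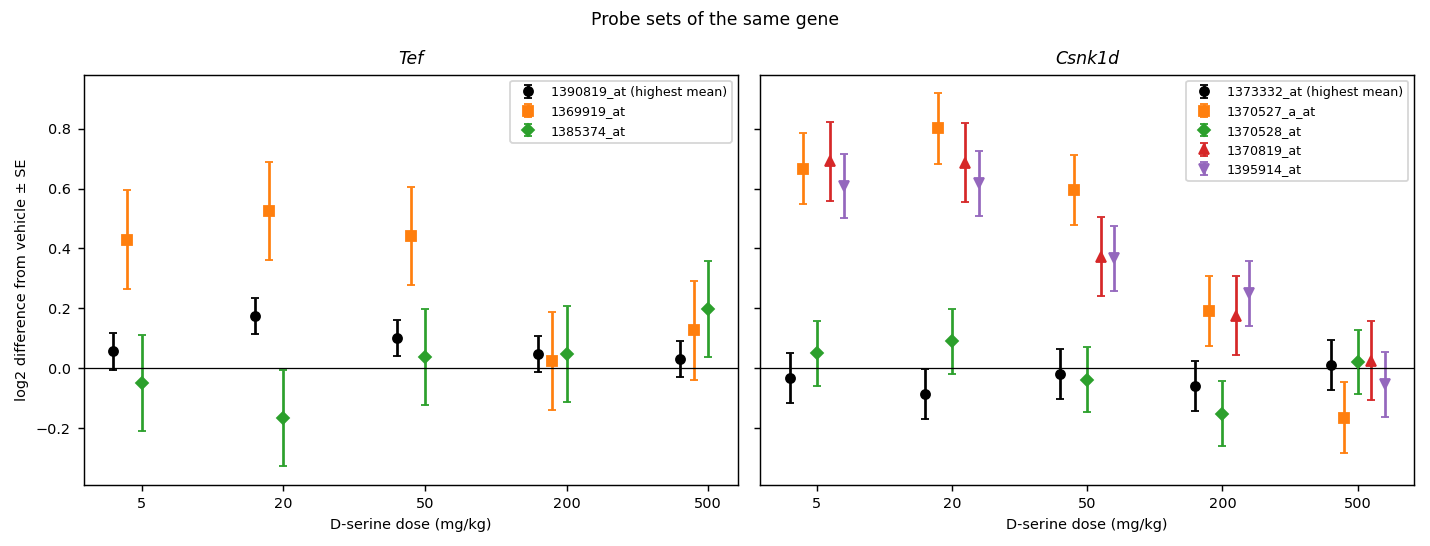
Log2 difference from vehicle ± SE (y axis) by D-serine dose (x axis, mg/kg) for each tested probe set of Tef (left) and Csnk1d (right), with the brightest probe set in black. At 20 mg/kg 1369919_at of Tef reads 0.53 and 3 of the 5 probe sets of Csnk1d read 0.62 to 0.80, while the brightest of each gene stays between -0.09 and 0.17 over the doses.

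Lists of genes that share inputs with Per1 gave no call. Of 8 activity-regulated genes tested 0 passed at any dose in limma, with 0 at an unadjusted p under 0.05 and medians of 0.05, -0.17, 0.13, -0.00076 and -0.15 from 5 to 500 mg/kg. The last of these includes 500 mg/kg replicate 4, the array that stood apart, whose mean over the 8 genes was 6.90. Replicates 1, 2 and 3 of that dose had 8.18, 8.24 and 8.43, and the vehicle arrays 7.68 to 8.46. Of 11 glucocorticoid-responsive genes 0 passed, with 0, 3, 0, 1 and 3 at an unadjusted p under 0.05 and medians of -0.04, 0.17, 0.04, 0.08 and 0.09. Of all probe sets 5.52%, 8.48%, 0.864%, 0% and 0.00537% passed from 5 to 500 mg/kg. At such shares lists of 8 and 11 genes would hold few calls.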

How the data were processed

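Total RNA of 24 forebrain samples, 4 rats in each of 6 groups taken from the labels, was measured on 1 Affymetrix array each. The deposited values are intensity, 1 linear signal per probe set, made by the authors with GCOS per the submitters' processing notes, whose version and scaling the sources used here do not give. As the array medians of log2(intensity + 16) spanned 0.74, above the limit of 0.5, quantile normalization was applied. The 57 control probe sets and the 40% with the lowest mean were left out, which left 18625, and a fold change on the log2(intensity + 16) scale understates the change of dim probe sets. Probe set names came from the platform annotation (20832 with 1 symbol, 436 with several, 9831 with none). A linear model of 6 group means was fitted in limma 3.58.1 (R 4.3.3) with an intensity trend and Benjamini-Hochberg adjustment within each comparison. Errors are standard errors of the fit unless SD is stated, and the number of arrays limits their precision. Data for 500 mg/kg against vehicle were simulated over 18625 probe sets that varied independently, of which 200 were changed. The test recovered 43% of probe sets given a log2 change of 0.5 and 88% of those given 1, with 5 false calls among all probe sets. In the real comparison 0.00537% passed, and with so few calls the adjustment is stricter. The recovered shares therefore do not carry over to it. Correlations used residuals from group means and 100000 permutations within groups.

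The members and lists were chosen with earlier results of these data known. By rule the text names every member and probe set, Bmal1, Npas2 and up to 8 other clock genes that passed a test, the 8 genes most like Dbp and the 5 least like it. Where a probe set other than the brightest passed, it was named after its values were seen. Alternatives were other filters, normalizations, pseudocounts, moderation, array weights, 1 probe set per gene, the Gapdh ratio as a covariate, the arrays of both groups alone, the slope over log2(dose + 1) and leaving out each array. Added after the data were seen were the relations with striatal markers, the pairs other than those with Dbp, the pairs of probe sets, the comparisons between doses and relations with the Gapdh ratio without 500 mg/kg replicate 4, and the settings of probe sets of Rorb, Wee1, Csnk1d, Csnk1e and Btrc. Replicate numbers follow accession order and pair nothing. Scan dates and batches were not used here.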

Additional observations from a re-analysis of the deposited data

Results flagged for a closer look

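Within groups of 4, 1 rat stood far from the other 3 in 7 of the 84 groups of clock probe sets, where chance alone sets apart about 1 group in 20. Clock read 7.80 in 5 mg/kg replicate 1, with the nearest other rat of the group at 8.27. Cry2 read 8.13 in 500 mg/kg replicate 1 (nearest 8.58) and 8.33 in vehicle replicate 2 (nearest 8.53). Per2 read 8.13 in 20 mg/kg replicate 4 (nearest 8.25) and 7.82 in 500 mg/kg replicate 4 (nearest 8.23), the array with cerebellar markers. Per3 read 6.81 in 50 mg/kg replicate 1, above the nearest at 6.38, and 6.34 in vehicle replicate 2, below the nearest at 6.82. Vehicle replicate 2 was also the array with the highest thalamic marker mean, 9.61, and had choroid plexus markers at 10.2. In the 50 mg/kg group the Gapdh ratio was also highest in replicate 1, at 0.57.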

How the results depend on the processing

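The count of 0 clock genes called held at 5, 50, 200 and 500 mg/kg and for the slope under all alternatives run, and so did the 0 correlations of Dbp. At 20 mg/kg 1 gene passed with median centring (Tef, 0.30, limma adjusted p = 0.024) and 3 with intensities as deposited (Per2, Tef and Clock), where 6910 of 18625 probe sets passed. By the F test 2 genes passed as deposited (Nr1d1 and Tef, among 5619 probe sets) and 1 with array weights (Cry1, among 2340), and the count ran from 0 to 1 on leaving out 1 array, being 1 (Cry1) without 50 mg/kg replicate 1. As deposited, Clock at 20 mg/kg read 0.42 in place of -0.0028, and Cry1 at 500 against 20 mg/kg read -0.034 in place of 0.51 once the Gapdh ratio was a covariate. Intensities as deposited keep the differences in array brightness. The causes were not tested. Of the other values outside the fits without 1 array, 934 kept their direction and side of the threshold, 73 moved, 59 lost a call, 3 gained one and 2 reversed, those of Clock and Cry1 given above. Clock genes near background were not tested, and the 95% intervals of Per3 reached 1.75-fold. No paired analysis was possible because replicate numbers follow accession order.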
